A study of Mus musculus with 2 samples.

Results

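Gabbr1, Gabbr2, Slc1a3, Slc1a2, Glul and Abat, the 6 genes described here, encode receptors, transporters and enzymes through which brain cells sense and clear GABA and glutamate. They were chosen by symbol from the gene list of the deposited count matrices, which holds 55450 gene identifiers. Earlier results of these data were known when the genes were chosen. The question was which of them are present in microglia beyond RNA carried over from other cells, and how their levels compare between the library of awake mice and the library of anesthetized mice. Microglia of adult male mice of the inbred strain C57BL/6J, with no engineered allele named, were sorted from brain as cells with CD11b and low CD45. The control group of 3 mice was given normal saline and is called awake. The anesthetic group of 3 mice was given sodium pentobarbital, a barbiturate, at 100 mg/kg. RNA was captured from single cells with the 10x Genomics 3' kit, which counts RNA molecules by unique molecular identifiers (UMIs). Each group has 1 library, and pooling of a group's 3 mice is not given in the sources used here, so group, library and handling cannot be told apart.

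GABA is the main inhibitory and glutamate the main excitatory transmitter of the brain. The metabotropic GABA-B receptor works as a pair of different subunits: GABBR1 binds GABA, and GABBR2 couples to the G protein and carries GABBR1 to the cell surface. Released glutamate is taken up mainly by astrocytes through SLC1A3 (EAAT1, or GLAST) and SLC1A2 (EAAT2, or GLT-1), and glutamine synthetase, encoded by Glul, turns it into glutamine, while GABA transaminase, encoded by Abat, breaks down GABA. Macrophages and microglia are also known to hold glutamine synthetase.

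Microglia-like cells, named from 10 markers such as P2ry12 and Tmem119, were 7391 of the 8223 barcodes kept (of 8600) for awake mice and 8286 of the 8944 kept (of 9412) for anesthetized mice, and all 10 markers were present in both. They held 47887501 and 56831789 UMIs, with medians of 5981 and 5488.5 UMIs per cell, and lay mostly in clusters 2 and 3 in the awake library and in clusters 0 and 1 in the anesthesia library. The classes used for comparison were small: 113 and 123 endothelial-like, 41 and 83 choroid plexus epithelium-like (choroid-like) and 51 and 41 border-associated macrophage-like barcodes. A further 274 awake and 26 anesthesia barcodes were led by astrocyte genes (Cpe, Gpm6b, Ntsr2) but also held all 10 microglial markers. They were given no cell type name and are called astrocyte-gene barcodes. The libraries shared 14 barcodes, 11 of them among the kept cells. A level is given as UMIs per 1000000 UMIs of the class (CPM). Every interval in parentheses is a 95% interval that covers counting error only, since 1 library per group allows no test between groups, and "higher" and "lower" describe these 2 libraries.

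Gabbr1 RNA was present in microglia-like cells of both libraries, and its receptor partner Gabbr2 was close to absent. Gabbr1 (chromosome 17, 37045966 to 37075067, GRCm38, plus strand) had 2658 UMIs in the awake library, or 55.5 CPM (53.4 to 57.7), and 2865 UMIs in the anesthesia library, or 50.4 CPM (48.6 to 52.3). The awake library was the higher, by a small margin. The log2 ratio of anesthesia over awake was -0.14 (-0.22 to -0.06). Microglia-like cells with a Gabbr1 UMI were 29.0% (awake) and 26.8% (anesthesia) of all, and 10.3% (9.65 to 11.1) and 9.23% (8.61 to 9.88) once each cell was thinned to 2000 UMIs. In the thinned endothelial-like barcodes the share was 4.72% (1.55 to 10.7) and 3.57% (0.982 to 8.89), or 21.2% and 17.9% unthinned, at median depths of 5507 and 4535 UMIs. The thinned intervals overlap those of the microglia-like cells in both libraries, so the share of cells does not part Gabbr1 from this class. Most cells with Gabbr1 held a single UMI, and 5.93% of awake and 5.66% of anesthesia cells held 2 or more.

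Gabbr2 (chromosome 4, 46662305 to 46991873, minus strand) had 14 UMIs in 14 of 7391 awake cells and 28 UMIs in 28 of 8286 anesthesia cells, or 0.292 CPM (0.160 to 0.491) and 0.493 CPM (0.327 to 0.712). No cell held more than 1 UMI, and the interval of the log2 ratio, 0.75 (-0.22 to 1.79), spans 0. Thinned, 2 of 7282 and 12 of 8140 cells had a UMI, no larger a share than the 1 of 106 and 1 of 112 endothelial-like barcodes, so Gabbr2 in microglia-like cells cannot be told from background RNA by this measure. The pair was hardly ever seen in the same thinned cell. Among cells with a Gabbr1 UMI, 0 of 753 awake and 3 of 751 anesthesia cells also had one of Gabbr2. For the awake library the interval allows a share of up to 0.489%. At 2000 UMIs per cell a rare transcript is missed in most cells, so this does not show that Gabbr1 cells lack Gabbr2. In the other classes Gabbr2 had 0 to 2 UMIs per library.

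The glutamate transporter Slc1a3 was present in microglia-like cells at a higher level than in endothelial-like or choroid-like barcodes, and was a little higher in the anesthesia library. Slc1a3 (chromosome 15, 8634124 to 8710764, minus strand) had 3130 UMIs in the awake library, or 65.4 CPM (63.1 to 67.7), and 4301 UMIs in the anesthesia library, or 75.7 CPM (73.4 to 78.0). The log2 ratio was 0.21 (0.14 to 0.28). Cells with 2 or more UMIs made up 8.16% of the awake and 11.2% of the anesthesia cells, with up to 7 and 10 UMIs in 1 cell. Thinned, the share of cells with a UMI was 12.0% (11.3 to 12.8) and 12.8% (12.1 to 13.6), and the intervals overlap. The endothelial-like barcodes gave 4.72% and 3.57% thinned and 7.08% and 16.3% unthinned. Thinned choroid-like barcodes were at 15.2% (5.11 to 31.9) awake and 8.06% (2.67 to 17.8) anesthesia. Both intervals overlap those of the microglia-like cells, so the share of cells does not part Slc1a3 from the choroid-like class.

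Slc1a2, the other astrocytic transporter, was present at a low level in microglia-like cells and higher in every astrocyte-gene and endothelial-like set of barcodes. Slc1a2 (chromosome 2, 102658659 to 102790784, plus strand) had 367 UMIs in awake cells, or 7.66 CPM (6.90 to 8.49), and 501 UMIs in cells of the other library, or 8.82 CPM (8.06 to 9.62). The log2 ratio was 0.20, with a lower bound at 0.0048 and an upper bound at 0.40, so it is barely parted from 0. Its sign was not stable. The ratio was -0.14 without cells holding a marker of other brain cells, -0.59 when compared within clusters and -0.21 after removal of a trend over GC content and transcript length. Cells with a UMI were 4.21% (awake) and 4.48% (anesthesia), or 1.52% (1.26 to 1.83) and 1.499% (1.246 to 1.787) thinned. In endothelial-like barcodes the thinned shares were 13.2% (7.41 to 21.2) and 11.6% (6.33 to 19.0), above those of microglia-like cells. A lower share than in a possible source class shows neither expression nor its absence, so the share is not read as expression.

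Glul, the glutamine synthetase gene, was found in nearly every microglia-like cell. Glul (chromosome 1, 153899944 to 153909723, plus strand) had 36906 UMIs in awake cells, or 771 CPM (763 to 779), against 38222 UMIs under anesthesia, or 673 CPM (666 to 679). The awake library was higher, with a log2 ratio of -0.20 (-0.22 to -0.18). A UMI was seen in 95.4% and 93.4% of cells, and in 74.7% (73.7 to 75.7) and 71.0% (70.0 to 72.0) after thinning. Cells with 2 or more UMIs were 85.9% of the awake and 80.9% of the anesthesia cells. Thinned endothelial-like barcodes were at 69.8% (60.1 to 78.4) and 76.8% (67.9 to 84.2). These intervals overlap those of the microglia-like cells, so the share of cells alone does not part Glul from this class. An exon of Teddm2 overlaps Glul on the other strand, with 16 and 19 UMIs of its own.

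Abat, the GABA transaminase gene, was almost absent from microglia-like cells and was found mainly in choroid-like barcodes. Abat (chromosome 16, 8513429 to 8621568, plus strand) had 22 awake UMIs, or 0.459 CPM (0.288 to 0.696), and 14 anesthesia UMIs, or 0.246 CPM (0.135 to 0.413). Its log2 ratio was -0.90 (-1.98 to 0.13), an interval that spans 0. Thinned, 0.137% and 0.0491% of cells had a UMI, against 0 of 106 and 0 of 112 endothelial-like barcodes. The intervals of the latter allow shares of up to 3.42% and 3.24%. Among choroid-like barcodes it had 14 UMIs in 9 of 41 awake barcodes, or 43.5 CPM (23.8 to 73.0), and 35 UMIs in 22 of 83 anesthesia barcodes, or 59.1 CPM (41.2 to 82.2). The intervals of the 2 libraries overlap there, and both lie far above those of the microglia-like cells. In the remaining classes Abat had 0 to 7 UMIs.

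Counted over the list, 4 of the 6 genes (Gabbr1, Slc1a3, Slc1a2 and Glul) had at least 200 UMIs over both libraries in microglia-like cells, the number required to call a gene measured. None of the 4 differed by 1.5-fold or more between the libraries, where 13.2% of the 11406 measured genes were at least 1.5-fold higher and 11.8% at least 1.5-fold lower in the anesthesia library, or 25% either way. Their median log2 ratio was 0.03, beside -0.02 over all measured genes. Glul, Gabbr1 and Slc1a3 kept their direction in 10 of 10 other ways of scaling the counts or choosing the cells, with sizes of -0.28 to -0.13, -0.22 to -0.07 and 0.08 to 0.28. The lowest value for Slc1a3 came without cells holding a marker of other brain cells, and that nearest 0 for Gabbr1 came from the comparison within clusters. Over all microglia-like cells the differences of these 3 genes exceed counting error. Without cells holding a marker of other brain cells, Slc1a3 was at 68.6 CPM (64.8 to 72.7) awake and 72.4 (68.7 to 76.2) anesthesia. Those intervals overlap. The spread between mice was not measured, so the differences cannot be set against it.

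**Figure D1:**
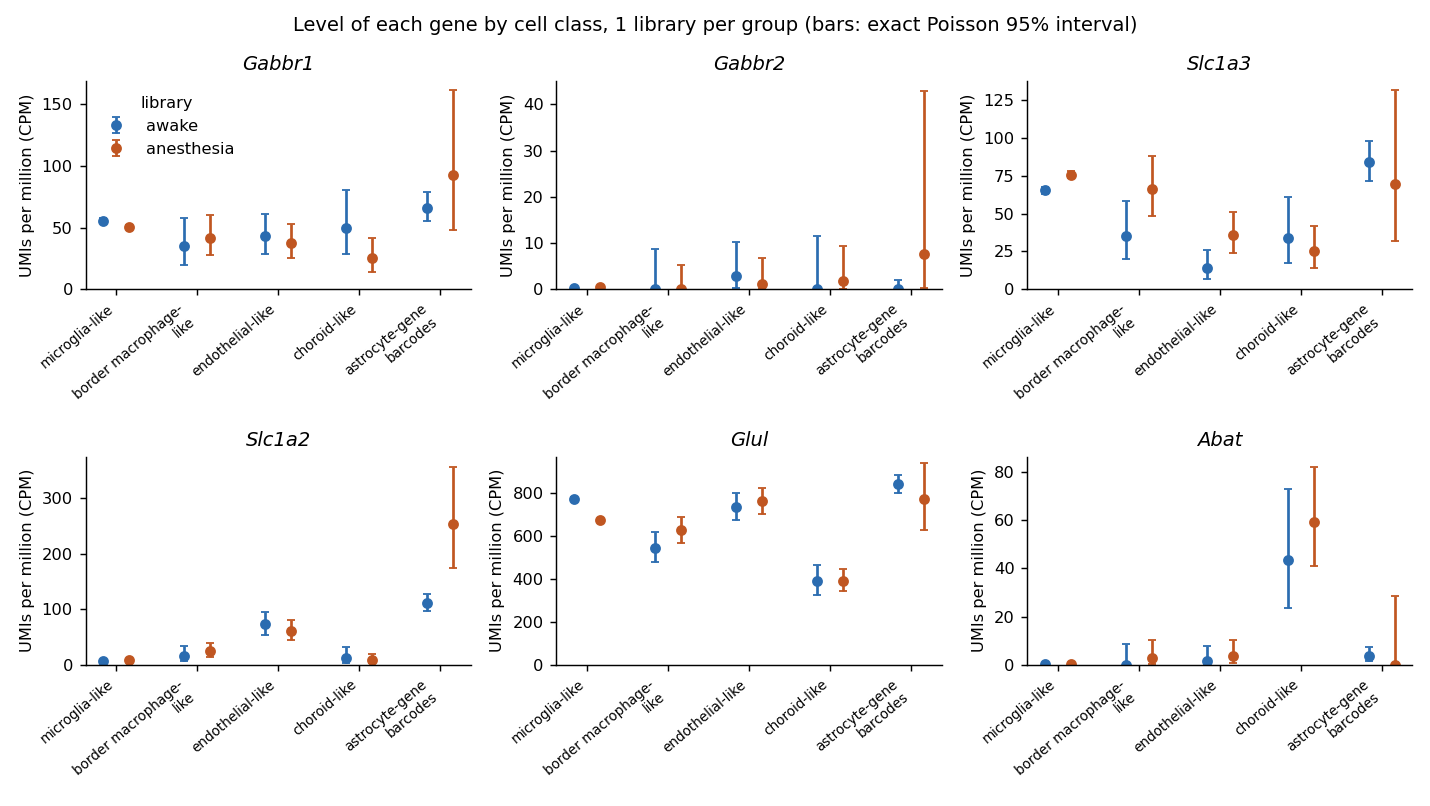
Level of each of the 6 genes (y axis, CPM, a separate linear scale per gene) in 5 classes of barcodes (x axis), with 1 point per library and its exact Poisson 95% interval. Slc1a2 is highest in the astrocyte-gene barcodes, Abat in the choroid-like barcodes, and Gabbr2 has 2 UMIs or fewer outside the microglia-like cells.

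Across classes the genes kept different orders, as the plot of levels by class shows. Gabbr1 stood at 65.9 CPM (55.0 to 78.5) in awake astrocyte-gene barcodes, 55.5 in microglia-like, 49.7 (28.4 to 80.8) in choroid-like, 42.8 (28.9 to 61.1) in endothelial-like and 35.2 (19.7 to 58.1) in macrophage-like barcodes, and each of these intervals overlaps that of its neighbour in the order. In the anesthesia library astrocyte-gene barcodes (92.4 CPM, 47.8 to 162) again stood first and microglia-like cells next, but the order of the last 3 changed, with macrophage-like at 41.8, endothelial-like at 37.2 and choroid-like at 25.3 CPM (14.2 to 41.8), whose upper bound lies below the microglia-like level. Gabbr1 UMIs were thus seen in barcodes of each of the 5 classes. Barcodes of the other classes also held microglial markers, and the part of microglial RNA in these levels was not tested.

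Slc1a3 had a clearer step. The awake library gave 84.1 CPM (71.7 to 98.1) in astrocyte-gene barcodes and 65.4 in microglia-like cells, then 35.2 (19.7 to 58.1) in macrophage-like, 34.2 (17.1 to 61.2) in choroid-like and 14.3 (6.85 to 26.3) in endothelial-like barcodes. In the anesthesia library the microglia-like cells were highest at 75.7, followed by astrocyte-gene barcodes at 69.3 (31.7 to 132), macrophage-like at 66.2 (48.5 to 88.4), endothelial-like at 36.0 (24.3 to 51.4) and choroid-like barcodes at 25.3 (14.2 to 41.8). The intervals of microglia-like cells and of endothelial-like and choroid-like barcodes did not overlap in either library, while those of the 3 lower classes overlapped their neighbours in the awake library and those of the last 2 overlapped in the anesthesia library.

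Slc1a2 ran the other way. It was at 112 CPM (97.7 to 128) in awake and 254 CPM (175 to 357) in anesthesia astrocyte-gene barcodes, then at 72.8 (54.2 to 95.7) and 61.2 (45.6 to 80.4) in endothelial-like barcodes. Macrophage-like barcodes had 16.4 (6.61 to 33.9) and 24.5 (14.3 to 39.2), choroid-like barcodes 12.4 (3.39 to 31.8) and 8.45 (2.74 to 19.7), and microglia-like cells 7.66 and 8.82 CPM. The choroid-like and microglia-like intervals overlap at the bottom of this order. Slc1a2 is among the leading genes of the astrocyte-gene barcodes, although it was kept out of the genes that formed the clusters.

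Glul was present throughout, at 839 CPM (799 to 881) and 770 (627 to 937) in astrocyte-gene barcodes, 771 and 673 in microglia-like, 734 (672 to 800) and 762 (704 to 823) in endothelial-like, 545 (477 to 620) and 626 (569 to 688) in macrophage-like and 389 (323 to 463) and 390 (342 to 444) in choroid-like barcodes. Of these 4 other classes, the choroid-like barcodes were the one whose interval lay apart from that of the microglia-like cells in both libraries.

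Within the microglia-like cells, Slc1a3, Gabbr1 and Glul also differed between clusters. In the 2 large awake clusters Gabbr1 was at 53.1 and 61.7 CPM, Slc1a3 at 58.1 and 76.7 and Glul at 812 and 747. In the 2 large anesthesia clusters Gabbr1 was at 48.5 and 54.6, Slc1a3 at 74.4 and 78.9 and Glul at 693 and 641. In both libraries the large cluster with more Gabbr1 had less Glul, beyond counting error. It also had more Slc1a3, with overlapping intervals in the anesthesia library. A cluster led by Clec7a, Lgals3 and Spp1 and by cell division genes such as Mki67 had less Gabbr1, at 36.6 CPM (29.1 to 45.5) in 259 awake cells, and less Glul, at 543 CPM (513 to 575). The 52 anesthesia cells of that cluster had 38.8 CPM (23.7 to 59.9) of Gabbr1 and 618 (552 to 690) of Glul. In the awake library both genes lay below the intervals of the large clusters, and in the anesthesia library both intervals overlapped those of the large clusters.

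Carry-over was then measured. RNA that reaches a microglial barcode from another class brings that class's genes in a fixed ratio, so the microglia-like level was expressed as a percentage of the source level and set beside the same percentage for the markers of the source. The 10 endothelial markers were in microglia-like cells at a median of 0.257% (awake) and 0.259% (anesthesia) of their endothelial-like level, with 75th percentiles of 0.613% and 0.626% and a maximum of 3.82% and 3.83% for Pecam1, an adhesion molecule that myeloid cells also make. The choroid markers had 75th percentiles of 0.0228% and 0.0527%. A gene counted as above carry-over when the lower bound of its percentage exceeded the 75th percentile of the markers.

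Against these sources all 6 genes were above carry-over in both libraries. Gabbr1 was at 130% (90.6 to 192) and 136% (95.3 to 199.9) of its endothelial-like level, Slc1a3 at 458% (249 to 956) and 210% (147 to 312), and Glul at 105% (96.3 to 115) and 88.3% (81.6 to 95.6). Slc1a2 was at 10.5% (7.84 to 14.4) and 14.4% (10.8 to 19.6). Gabbr2 and Abat also passed, but with 1 to 3 UMIs in endothelial-like and, for Gabbr2, 0 and 1 in choroid-like barcodes, and Abat stood at 1.06% (0.516 to 2.23) and 0.417% (0.207 to 0.794) of its choroid-like level. Almost every measured gene passes this comparison: 99.7% (awake) and 99.8% (anesthesia) with the endothelial-like source and 100% with the choroid-like source in each library. The count of 6 of 6 is near that background and is not a result about these genes. The highest marker in place of the 75th percentile left 21 of the 24 combinations of gene, source and library above. Those not above were Gabbr2 (awake) and Abat (anesthesia) with the endothelial-like source and Abat (anesthesia) with the choroid-like source. The share of all measured genes above the highest marker was not counted, so this count is not read as a result about these genes.

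The awake astrocyte-gene barcodes were taken as a further source. In that library 5 astrocyte markers had enough UMIs, and they stood in microglia-like cells at 4.02% (Ntsr2) to 6.12% (Aqp4) of their level in those barcodes. Slc1a2 stood at 6.83% (5.76 to 8.12), an interval that holds the highest of the 5 markers and lies just above their 75th percentile of 5.60%. Gabbr1 was at 84.2% (70.4 to 101), Slc1a3 at 77.7% (66.3 to 91.6) and Glul at 91.8% (87.4 to 96.6). The 10 microglial markers stood in these barcodes at 96.6% to 120% of their microglia-like level (median 102%), so the barcodes hold as much microglial RNA per UMI as microglia-like cells, and a percentage near 100 does not part a microglial gene from one that astrocytes share. Abat, at 12.6% (5.22 to 35.0) from 7 UMIs in the source, did not pass. Of all measured genes 99.9% passed, so passing is again close to the background. The anesthesia library, with 46 astrocyte marker UMIs in such barcodes, was not compared. Barcodes led by oligodendrocyte genes (awake) left Abat and Gabbr2 not above and the other 4 genes above, where 99.2% of measured genes passed, and those led by mural genes left all 6 above, where 100% did. Among the oligodendrocyte markers, Mbp, Cnp and Mag stood at 5.98%, 7.15% and 8.68% of their source level, and the others at 0.0326% to 0.926%. These high values raise the 75th percentile, so Abat and Gabbr2 not passing there is not read as a result.

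**Figure D2:**
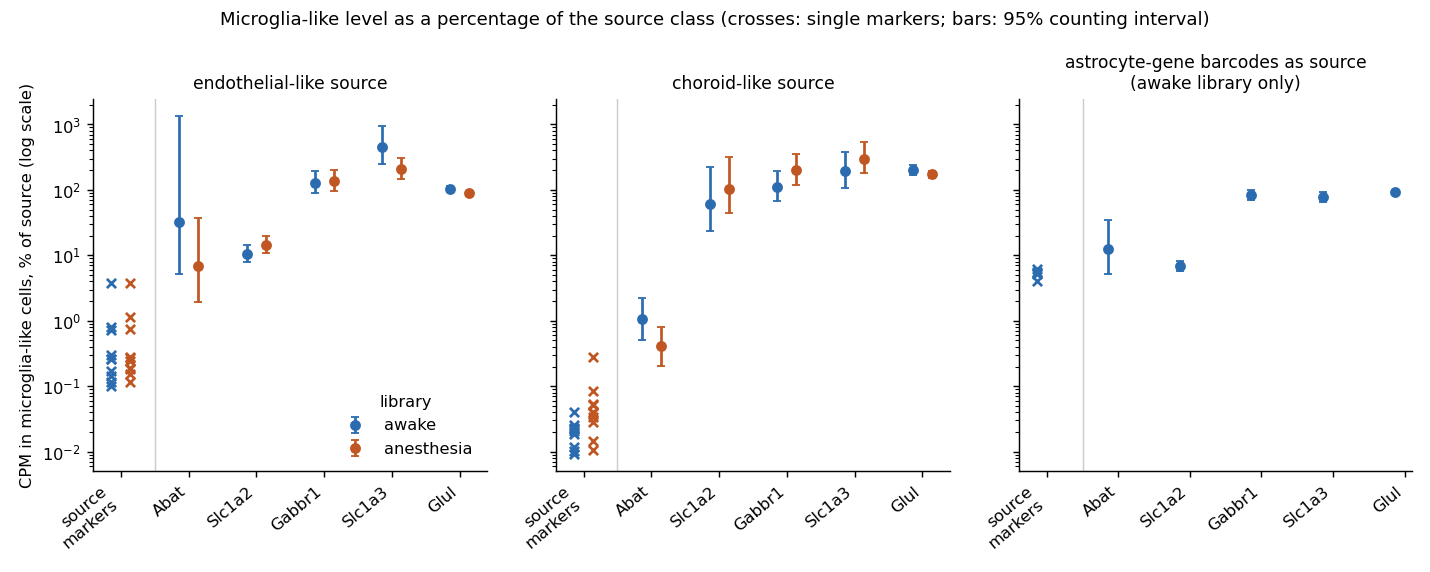
CPM in microglia-like cells as a percentage of the CPM in a source class (y axis, log scale) for the markers of that source (crosses) and for 5 of the genes (points with 95% counting intervals), by library. Gabbr1, Slc1a3 and Glul lie at 77.7% or more of every source, while Slc1a2 lies beside the astrocyte markers in the awake astrocyte-gene barcodes.

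Both transporters were then set against astrocyte marker UMIs. For every 100 UMIs of the 10 astrocyte markers, microglia-like cells had 70.8 (61.8 to 81.1) UMIs of Slc1a2 in the awake and 85.8 (76.0 to 96.8) in the anesthesia library. Endothelial-like barcodes had 57.3 (39.8 to 81.7) and 52.6 (36.7 to 74.5), astrocyte-gene barcodes 54.3 (45.8 to 64.2) and 71.7 (44.4 to 115), and barcodes led by platelet genes 64.2 (42.7 to 95.5) and 75 (38.4 to 144). The intervals of the microglia-like cells overlap those of the platelet-gene and astrocyte-gene barcodes in both libraries, and those of the endothelial-like barcodes in the awake library but not in the anesthesia library. Mural-gene barcodes, at 0 of 20 marker UMIs (awake) and 35.2 (21.4 to 56.2), lay below, as did the awake oligodendrocyte-gene barcodes at 32.7 (17.3 to 58.4). Choroid-like barcodes, at 5.06 and 5.10, from 4 and 5 Slc1a2 UMIs, did too. Macrophage-like barcodes were at 63.6 (20.9 to 180) and 142 (63.8 to 325), from 11 and 12 marker UMIs, and both intervals overlap those of the microglia-like cells.

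For Slc1a3 the same ratio was 604 (550 to 664) and 736 (675 to 804) in microglia-like cells, against 11.2 (5.21 to 21.6) and 30.9 (19.8 to 47.0) in endothelial-like 13.9 (6.68 to 26.3) and 15.3 (8.25 to 26.5) in choroid-like and 40.7 (33.7 to 49.0) and 19.6 (8.42 to 40.5) in astrocyte-gene barcodes. Macrophage-like barcodes had 136 (58.5 to 328) and 383 (200 to 795), an interval that overlaps that of the microglia-like cells in the anesthesia library. The low-depth barcodes, with 5 and 1 marker UMIs, had 280 and 3300. Because the astrocyte-gene barcodes hold microglial RNA with astrocyte RNA added, a lower ratio there is what any gene made by microglia gives, and nothing is read from it about the source of Slc1a3. In microglia-like cells the 10 astrocyte markers summed to 10.8 CPM (9.91 to 11.8) awake and 10.3 CPM (9.46 to 11.1) under anesthesia, and none of the 10 was at 0.

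**Figure D3:**
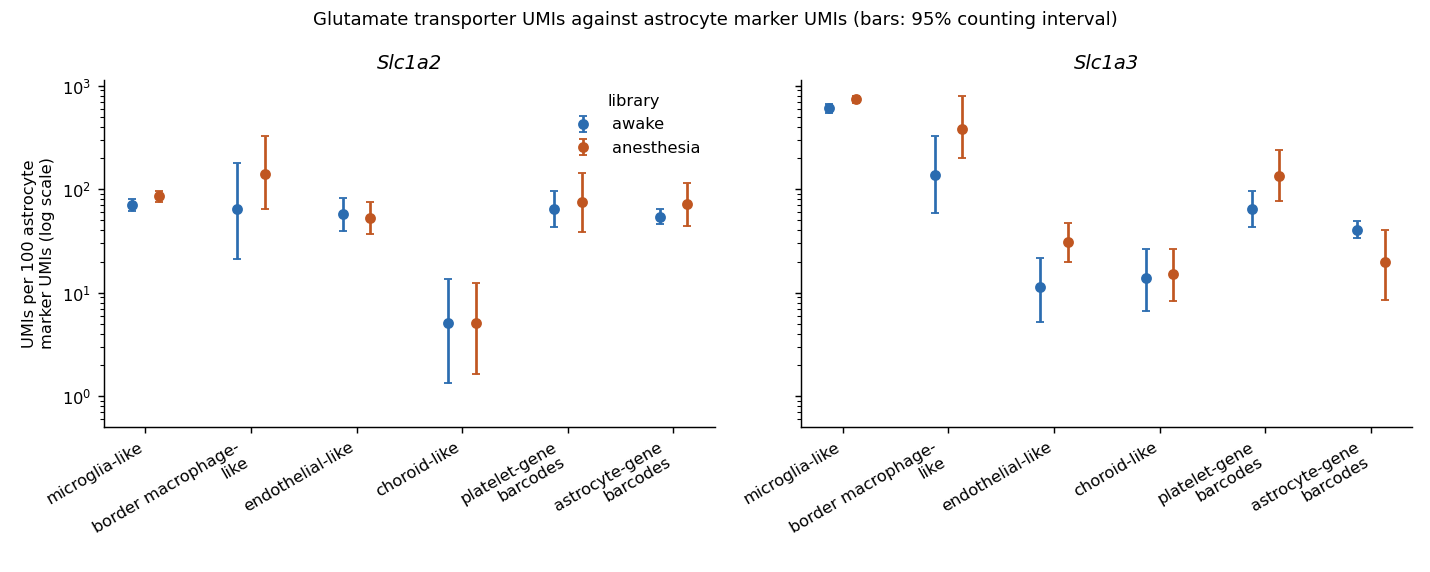
UMIs of Slc1a2 (left) and Slc1a3 (right) per 100 UMIs of 10 astrocyte markers (y axis, log scale) in 6 classes of barcodes, with 95% counting intervals, by library. Slc1a2 lies between 52.6 and 142 except in choroid-like barcodes (5.06 and 5.10), and Slc1a3 is at 604 and 736 in microglia-like cells and next highest in macrophage-like barcodes (136 and 383).

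Markers were also counted cell by cell. With microglia-like cells thinned to 2000 UMIs, an astrocyte marker was seen in 7.21% (3.16 to 13.7) of 111 awake cells with a Slc1a2 UMI and in 1.81% (1.52 to 2.15) of those without, and in 11.5% (6.42 to 18.5) of 122 against 1.62% (1.36 to 1.92) in the anesthesia library. The intervals do not overlap in either library. Cells with Slc1a2 also more often held an endothelial marker, 18.9% (12.1 to 27.5) against 9.78% (9.10 to 10.5) awake and 15.6% (9.64 to 23.2) against 8.38% (7.78 to 9.01) under anesthesia. They likewise more often held a marker of oligodendrocyte precursors, 6.31% (2.57 to 12.6) against 1.98% (1.67 to 2.33) and 4.92% (1.83 to 10.4) against 1.12% (0.904 to 1.38). Most Slc1a2 cells had none of these markers at this depth.

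For Gabbr1, Slc1a3 and Glul none of 9 marker lists of other cell types had intervals that parted cells with the gene from cells without it, in either library. The comparison was not made over other measured genes, so how often such intervals part is not known. An astrocyte marker was seen in 1.71% of awake cells with Slc1a3 and 1.92% of those without, and in 1.63% and 1.79% of anesthesia cells. For Gabbr1 the shares were 1.86% and 1.90% (awake) and 1.86% and 1.76% (anesthesia), and for Glul 1.77% and 2.28% (awake) and 1.85% and 1.57% (anesthesia). Slc1a3 did not mark the cells with Slc1a2 either. Of awake cells with Slc1a3, 1.94% (1.13 to 3.09) had a Slc1a2 UMI, against 1.47% (1.19 to 1.79) of cells without, and the anesthesia library gave 1.53% and 1.49%.

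**Figure D4:**
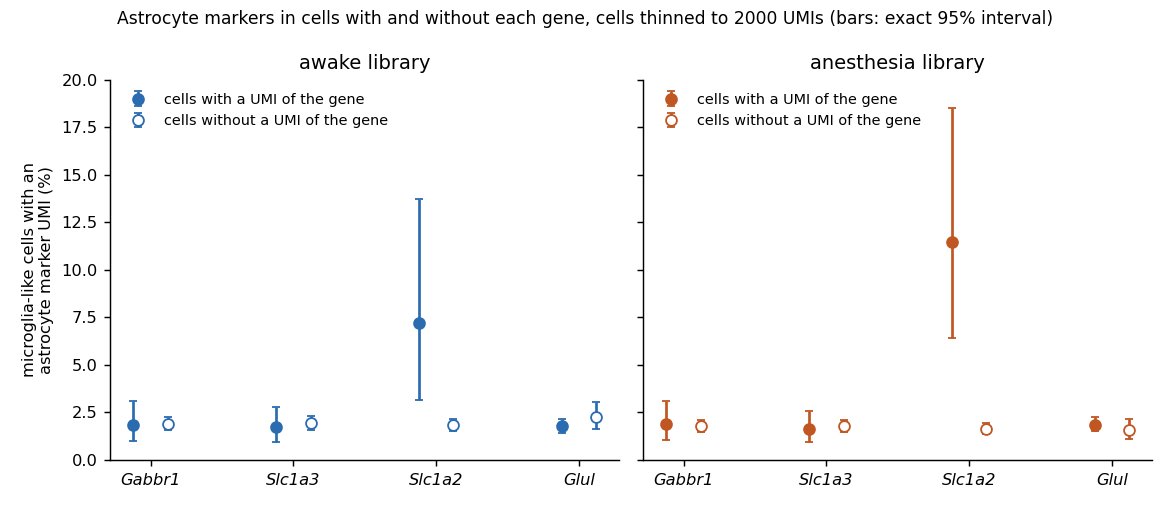
Share of microglia-like cells with a UMI of any of 10 astrocyte markers (y axis, %) among cells with (filled) and without (open) a UMI of each gene, each cell thinned to 2000 UMIs, with exact 95% intervals; left, awake, right, anesthesia library. Slc1a2 is the gene whose filled and open points have intervals that do not overlap.

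Microglial markers were also measured in the barcodes used as sources. All 10 stood in endothelial-like barcodes at 15.4% to 20.2% of their microglia-like level in the awake library and at 38.7% to 51.6% in the anesthesia library. Slc1a3 in endothelial-like barcodes was at 21.8% (10.5 to 40.2) and 47.6% (32.0 to 68.0) of its microglia-like level, intervals that hold the median of the microglial markers in both libraries. Slc1a3 was at 14.3 and 36.0 CPM there, a log2 ratio of 1.33 (0.26 to 2.53), and the microglial markers, whose part in it was not tested, were also higher in anesthesia endothelial-like barcodes. Gabbr1 was at 77.2% (52.0 to 110) and 73.8% (50.03 to 105), above all 10 microglial markers in the awake library, with a lower bound inside their range in the anesthesia library. Glul at 95.2% (87.1 to 104) and 113% (105 to 123) and Slc1a2 at 950% (694 to 1276) and 694% (510 to 927) lay above all of them. In choroid-like barcodes, where microglial markers were at 22.6% to 40.3% (awake) and 43.8% to 52.4% (anesthesia), Slc1a3 at 52.3% (26.1 to 93.8) and 33.5% (18.7 to 55.3) again held their medians of 35.0% and 46.2% in its intervals. Glul at 50.4% (42.0 to 60.1) lay above their range there in the awake library and at 58.0% (50.8 to 66.0) overlapped it in the anesthesia library.

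The wider GABA and glutamate lists held 93 genes with the 6 above included, of which 21 were measured in microglia-like cells. Of these, 2 were at least 1.5-fold higher and 2 at least 1.5-fold lower in the anesthesia library, against 13.2% and 11.8% of all measured genes, and the median log2 ratio was 0.15, beside -0.02. Around the GABA-B receptor, 5 of 13 genes were measured. Kctd12, an auxiliary subunit of the receptor, was at 987 CPM (awake) and 821 CPM (anesthesia), or -0.27 (-0.28 to -0.25) as a log2 ratio. An exon of Gm26778 overlaps it on the other strand, with 2130 and 3986 UMIs of its own, so the count of Kctd12 is uncertain. Kctd12b, a related gene, was the 1 gene of the list past 1.5-fold, with 315 and 612 UMIs and a ratio of 0.71 (0.51 to 0.91). It was at -0.0086 when compared within clusters, and at 82.8 and 67.2 CPM in endothelial-like barcodes against 6.58 and 10.8 CPM in microglia-like cells. The inhibitory G protein subunits Gnai2 and Gnai3 were at -0.12 (-0.13 to -0.10) and 0.15 (0.08 to 0.22), though Gnai2 was at 0.08 without the GC and length trend and Gnai3 at -0.02 within clusters.

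The ionotropic receptors were not measured. None of 19 GABA-A subunits, on which barbiturates act, reached 200 UMIs, and neither did any of 18 ionotropic or 8 metabotropic glutamate receptors. Summed, the GABA-A subunits had 137 (awake) and 253 (anesthesia) UMIs, or 2.86 and 4.45 CPM, and a log2 ratio of 0.64 (0.33 to 0.95). The ionotropic glutamate receptors had 212 and 424 UMIs, a ratio of 0.75 (0.51 to 0.998). Neuron markers were higher in the anesthesia library as well, at 747 and 1131 UMIs for 10 markers, none of them at 0, a ratio of 0.35 (0.22 to 0.49), and their part in these sums was not tested. A neuron marker was seen in 11.1% (5.87 to 18.6) of 108 anesthesia cells with an ionotropic glutamate receptor UMI and in 3.29% (2.91 to 3.70) of those without. In the awake library the shares were 8.77% (2.91 to 19.3) of 57 cells and 2.38% (2.04 to 2.76). For the GABA-A subunits the shares were 8% (2.99 to 16.6) and 3.35% (2.97 to 3.76) in the anesthesia library, with overlapping intervals.

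Among 16 glutamate and glutamine transporters, 9 were measured, with 1 higher and 2 lower. Slc38a2, a sodium-coupled transporter of glutamine and other neutral amino acids, was at 397 CPM (awake) and 721 CPM (anesthesia), a log2 ratio of 0.86 (0.84 to 0.89) that lay between 0.67 and 0.89 in all 10 alternatives. Slc7a11, the cystine/glutamate exchanger through which cells release glutamate, was at 30.1 and 14.6 CPM, or -1.05 (-1.17 to -0.92), with alternatives from -1.47 to -1.02. Slc1a4, a transporter of neutral amino acids in the family of Slc1a2 and Slc1a3, had 257 and 152 UMIs and was at -1.005 (-1.30 to -0.71), or -0.34 within clusters. Slc1a5, the glutamine carrier of the same family, was at 0.40 (0.29 to 0.50), with alternatives from 0.05 to 0.57. Slc38a1 was at 0.08 and Slc3a2, the partner chain of Slc7a11, at -0.08. Both had the other sign once the GC and length trend was taken out. The vesicular glutamate transporter Slc17a7 was at 0.23 (-0.12 to 0.59), with alternatives from -0.10 to 0.77.

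Of 8 glutamate and glutamine enzymes, 6 were measured and none was past 1.5-fold. The dehydrogenase Glud1 and the aspartate aminotransferases Got1 and Got2 were at 0.24, 0.25 and 0.15, and the alanine aminotransferase Gpt2 at -0.32 (-0.61 to -0.04). Of 11 genes of GABA synthesis, transport and breakdown, 1 was measured: Aldh9a1, an aldehyde dehydrogenase, at 28.3 and 28.4 CPM, a log2 ratio of 0.0055 (-0.10 to 0.11).

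**Figure D5:**
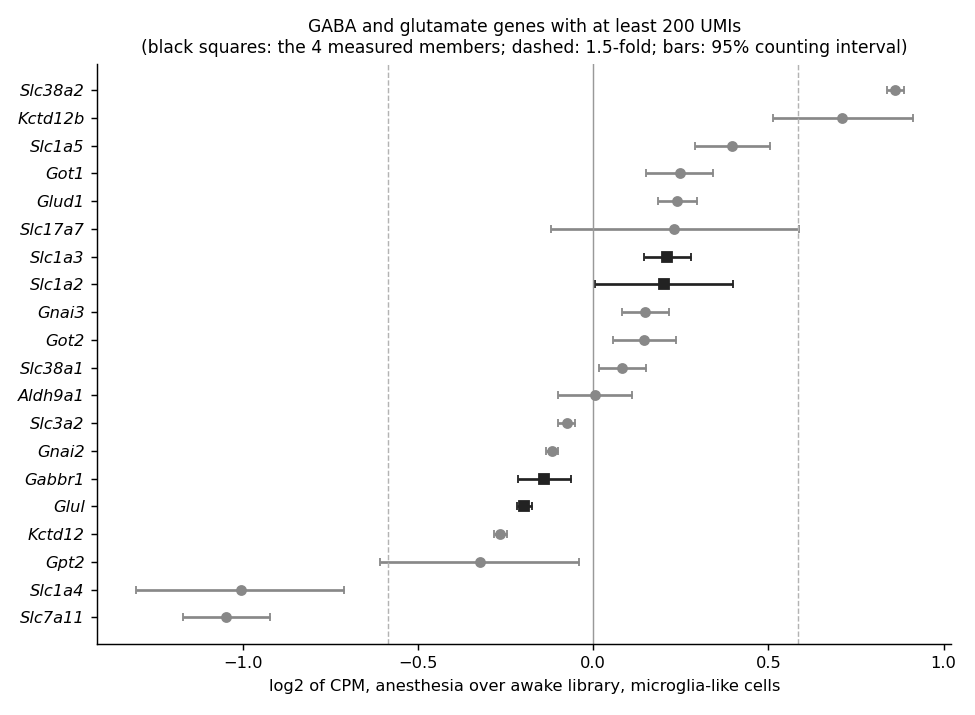
Log2 ratio of CPM in the anesthesia over the awake library (x axis) for 20 of the 21 GABA and glutamate genes with at least 200 UMIs in microglia-like cells (y axis), with 95% counting intervals and dashed lines at 1.5-fold. Gabbr1, Glul, Slc1a2 and Slc1a3 (black squares) lie inside the dashed lines, Slc38a2 and Kctd12b above and Slc1a4 and Slc7a11 below.

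The genes most like each measured gene across classes were named as a description, over 8 points (4 named classes in 2 libraries) that share libraries and depth. By Pearson correlation of log2(CPM + 1), these were Tubb2b (0.958), Arhgap27 (0.919) and Rgmb (0.906) for Gabbr1, and Mtdh (0.987), Vrk1 (0.985) and Ubash3b (0.976) for Slc1a3. For Slc1a2 they were Chmp3 (0.977), Fn1 (0.973) and Hip1 (0.970), and for Glul Yju2 (0.985), Herpud2 (0.983) and Map4k4 (0.982).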

How the data were processed

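The authors deposited UMI counts per gene and barcode, whole numbers with no normalization. The submitters' processing notes name bcl2fastq, Cell Ranger 3.1.0 and GRCm38, while version 4.0.0 stands in the matrices, per the file headers. Cell calling is not given in the sources used here. All 55450 identifiers matched GENCODE M21, the source of coordinates. The members and lists were chosen with earlier results of these data known.

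Cells with at least 500 genes, 1000 UMIs and at most 10% mitochondrial UMIs were clustered jointly (scanpy 1.11.5, leidenalg 0.10.2, 2000 variable genes, 30 components, 15 neighbours, resolution 0.6), with no GABA or glutamate gene among the variable genes. Clusters were named from 10 markers per type: at least 3 among the 10 leading genes and 3 seen in 25% of cells, or 7 of 10 for microglia. That 25% threshold, the splitting of mixed clusters and the comparisons with astrocyte-gene barcodes and with microglial markers in other classes were chosen after seeing the data. Scrublet called 0 doublets in each library, so it did not work here, and none were removed.

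Summed counts gave CPM with exact Poisson intervals, ratios with exact conditional binomial intervals and shares with Clopper-Pearson intervals. Thinning to 2000 UMIs excluded 109 (awake) and 146 (anesthesia) microglia-like cells. With 1 library per group no p-value was computed. Named genes were the 6 members, list genes with at least 200 UMIs, and the 3 genes most like each measured member. Alternatives used the TMM factor of edgeR 4.0.16, among others. Scripts were tested on simulated counts. Some results are not reported here.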

Additional observations from a re-analysis of the deposited data

Results flagged for a closer look

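For a pair of genes the microglia-like cells and another class lay on opposite sides of 0, with intervals that exclude 0 in each class, and the difference between classes was not tested. Kctd12, the auxiliary GABA-B receptor subunit, had a log2 ratio of anesthesia over awake of -0.27 (-0.28 to -0.25) in microglia-like cells and 0.73 (0.50 to 0.96) in endothelial-like barcodes, from 241 and 475 UMIs in the latter. Microglial markers stood at a median of 19.0% of their microglia-like level in awake and 43.2% in anesthesia endothelial-like barcodes, and their part in the value was not tested. Slc38a1, the glutamine transporter, was at 0.08 (0.02 to 0.15) in microglia-like cells and -0.80 (-1.51 to -0.08) in choroid-like barcodes, from 34 and 36 UMIs.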

How the results depend on the processing

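Of the 4 measured members, 0 were past 1.5-fold under 9 of 10 alternatives and 1 (Slc1a2, -0.59) in the within-cluster ratio. That ratio compares the libraries within 6 clusters, of which the 4 largest have 1 to 9 Slc1a2 UMIs from the library with fewer cells. Kctd12b turned to -0.0086 in the same ratio, and the cause was not tested. The count of pathway genes past 1.5-fold was 13 of 34 (10 higher, 3 lower) with a minimum of 50 UMIs, and 7 of 21 (4 higher, 3 lower) with a threshold of 25% above or the inverse below, against 4. The share of all genes past these thresholds was not counted at these settings, so neither count is read as a result about the lists. Gabbr1 ranged from -0.22 to -0.07, Slc1a3 from 0.08 to 0.28, Glul from -0.28 to -0.13 and Slc1a2 from -0.59 to 0.23 over the 10 alternatives. The TMM factor moved the median of all measured genes to -0.10, and Aldh9a1 and Slc38a1 below 0. Removing cells with any marker of other brain cells left 2955 awake and 3674 anesthesia cells. The markers included Cnp, Mag and Mbp, with 2630, 1607 and 1426 UMIs in awake microglia-like cells. Whether the removed cells held carried-over RNA was not tested. The count above carry-over was 21 to 24 of 24, and 29 of 30 with the awake astrocyte-gene barcodes. Those barcodes were added after seeing the data, like the GC and length trend and the co-occurrence at 3000 UMIs. The count of 21, from the highest marker, was not set beside all measured genes and is not read as a result about the members. The number of genes whose point values exceeded those of the endothelial-like class in both libraries was 2 for levels (also at resolution 1.0) and 2 for shares (also at 3000 UMIs), although the intervals of Gabbr1, 1 of the 2, overlap those of that class. The same count was not made over all measured genes, so these numbers are not read as a result about the members. No paired analysis was possible because the groups share fewer than 2 replicate numbers, and no replicate could be left out of 1 library per group. Depth limits Gabbr2, Abat and the ionotropic receptors, all under 200 UMIs.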
